A study of Rattus norvegicus with 12 samples.

Results

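Calcium handling and cardiac ion channel genes were followed in rat hearts after ischaemia and reperfusion. The set held 34 genes, of 10410 genes that the array reads through probe sets with 1 gene symbol. It was chosen by name, as genes of the sarcoplasmic reticulum, calcium and potassium channels, ion pumps and exchangers, pacemaker channels and connexins. Earlier results of these data were known when it was chosen. All 34 genes were found on the array, through 62 probe sets, and the probe set with the highest mean signal stands for each gene. Of the 34, 30 were bright enough to be tested. Fkbp1b, Kcnd3, Kcnj2 and Hcn4 were not.

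In the rats labelled IR the left anterior descending coronary artery was tied for 30 min and then reopened, and hearts were taken 2 d or 7 d later. Sham rats of the same days had no occlusion. Sham and IR rats of each day made 4 groups of 3 rats, and each of the 12 rats gave 1 array. The labels name the ventricle for 1 of the 12 samples and the heart for the others, and nothing used here states strain, age, sex or the region of the heart sampled. RNA came from whole tissue, so that fewer cells of a type and less RNA per cell cannot be told apart in any value below.

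A heartbeat starts when an action potential opens L-type calcium channels, and the calcium that enters makes ryanodine receptors release far more calcium from the sarcoplasmic reticulum (SR), the internal store of the muscle cell. A pump, SERCA, returns calcium to the store, and the sodium-calcium exchanger moves the remainder out. Potassium channels end the action potential and hold the resting potential, and connexins carry the impulse from cell to cell. Lower SERCA and lower transient outward potassium current are textbook features of failing and infarcted ventricle.

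The 250 bases before the transcription start are shown for Hrc, Kcnip2 and Sri. The first and second were called lower and the third higher in IR hearts over both days under every setting tried. Casq2, Srl and Dhrs7c also kept their calls over both days in every setting and are not shown. They come from RefSeq, build GRCr8, written 5′ to 3′ in the gene's direction, with matches to the motifs searched in capitals. Hrc lies at chr1:104949500-104949749 on the + strand, Kcnip2 at chr1:254613899-254614148 on the - strand and Sri at chr4:26942658-26942907 on the - strand.
Hrc: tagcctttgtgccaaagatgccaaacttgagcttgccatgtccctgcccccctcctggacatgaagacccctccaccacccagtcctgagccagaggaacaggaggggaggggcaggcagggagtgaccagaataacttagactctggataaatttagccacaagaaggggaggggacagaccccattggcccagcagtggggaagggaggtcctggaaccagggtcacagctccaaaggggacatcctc
Kcnip2: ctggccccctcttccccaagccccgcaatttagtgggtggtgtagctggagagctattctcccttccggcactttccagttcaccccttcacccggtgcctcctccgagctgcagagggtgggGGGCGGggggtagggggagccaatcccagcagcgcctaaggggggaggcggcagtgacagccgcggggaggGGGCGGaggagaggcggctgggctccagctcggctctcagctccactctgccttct
Sri: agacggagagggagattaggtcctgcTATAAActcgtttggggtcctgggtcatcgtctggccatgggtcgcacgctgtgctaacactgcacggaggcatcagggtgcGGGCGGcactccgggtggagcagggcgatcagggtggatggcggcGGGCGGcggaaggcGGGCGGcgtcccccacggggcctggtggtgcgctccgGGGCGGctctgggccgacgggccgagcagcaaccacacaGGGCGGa
The motifs, searched on both strands, were the TATA box (TATAAA), the GC box (GGGCGG), an MEF2-type site (CTA and TAG with any 4 bases between), the MCAT element (CATTCC) and a GATA-type site (AGATAA). The Sri window held 6 matches, a TATA box letter string and GC boxes, the Kcnip2 window held 2 GC boxes, and the Hrc window held 0. GC content was 58.0% for Hrc, 68.0% for Kcnip2 and 70.0% for Sri, against a median of 51.2% over all promoters of the table. Of the 34 genes 24 were found in the table. A GC box letter string stood before 14 of these and a TATA box letter string before 2 (Gja5 and Sri). The TATA string lay 224 to 219 bases before the start of Sri. In Gja5 it lay 178 to 173 bases before the start, on the opposite strand. An MCAT element stood before 3 (Cacna1c, Hcn2 and Kcna5), a GATA-type site before 2 (Cacna2d1 and Gja1) and an MEF2-type site before 0. The shares among all 33469 promoters of the same length were 30.5% for the GC box, 12.9% for the TATA box, 12.1% for the MCAT element, 10.3% for the GATA-type site and 3.41% for the MEF2-type site. A gene with several start sites was counted where any of its windows matched.

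Values are MAS5 signals, a linear intensity per probe set, and changes are differences of log2(signal + 195) from limma with its standard error (SE). A change is called where the p-value, adjusted by the Benjamini-Hochberg method over 10527 probe sets, is under 0.05. The labels do not say more of the rats than a number each, so that p-values measure the spread between these samples. Arrays of 2 groups stood apart from their group on the first principal component: 2 d IR replicate 69 lay at -18.30 against 4.11 and -0.18, and 7 d sham replicate 82 at 23.62 against 1.06 and 1.14. Ventricular muscle markers were bright in all groups, with Myl2 at 48164 to 72537. Markers of the atrium differed between arrays, with Myl7 at 734 to 1716 in sham and 582 to 807 in IR hearts at 2 d, and at 2756 to 9699 in sham and 452 to 3150 in IR hearts at 7 d. Atrial markers did not move together. At 7 d the change was negative for Myl7 (-1.75), Myl4 (-1.01), Tbx5 (-0.63) and Nppa (-0.34). It was positive for Nr2f2 (0.63), Dkk3 (0.73) and Sln (0.03). At 2 d Myl7, Myl4, Sln and Nppa had negative changes, and Nr2f2, Dkk3 and Tbx5 positive ones. The part of atrial tissue in the values of Kcnj3 and Gja5, which the atrium makes, was not tested. The log2 ratio of the 3′ to the 5′ beta-actin probe sets, a sign of RNA quality, was 0.39 to 0.83 in 7 d sham and 0.11 to 0.23 in 7 d IR hearts, and that of GAPDH was 0.31 to 0.44 and 0.28 to 0.38; their part in the changes at 7 d was not tested.

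The 30 tested genes lay mostly lower in IR than in sham hearts. At 2 d, 25 had a negative and 5 a positive change, with a median log2 change of -0.36, and at 7 d 26 were negative and 4 positive, with a median of -0.26. Over all probe sets the medians were 0.00 and 0.01. At 2 d 1 gene passed the test, Dhrs7c, which fell, where 0.589% of all probe sets were called lower, 1.88% higher and 2.47% in either direction; 15 of the 30 had an unadjusted p under 0.05, as did 21.5% of all probe sets. At 7 d 6 genes fell, Atp2a2, Hrc, Cacnb2, Kcnip2, Kcnq1 and Kcnk3, against 5.84% of all probe sets called lower, and 1 rose, Sri, against 6.22% called higher. When arrays were centred on their medians, 62.1% of the calls at 7 d were lower instead of 48.4%, and 37.5% instead of 23.8% at 2 d.

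**Figure D1:**
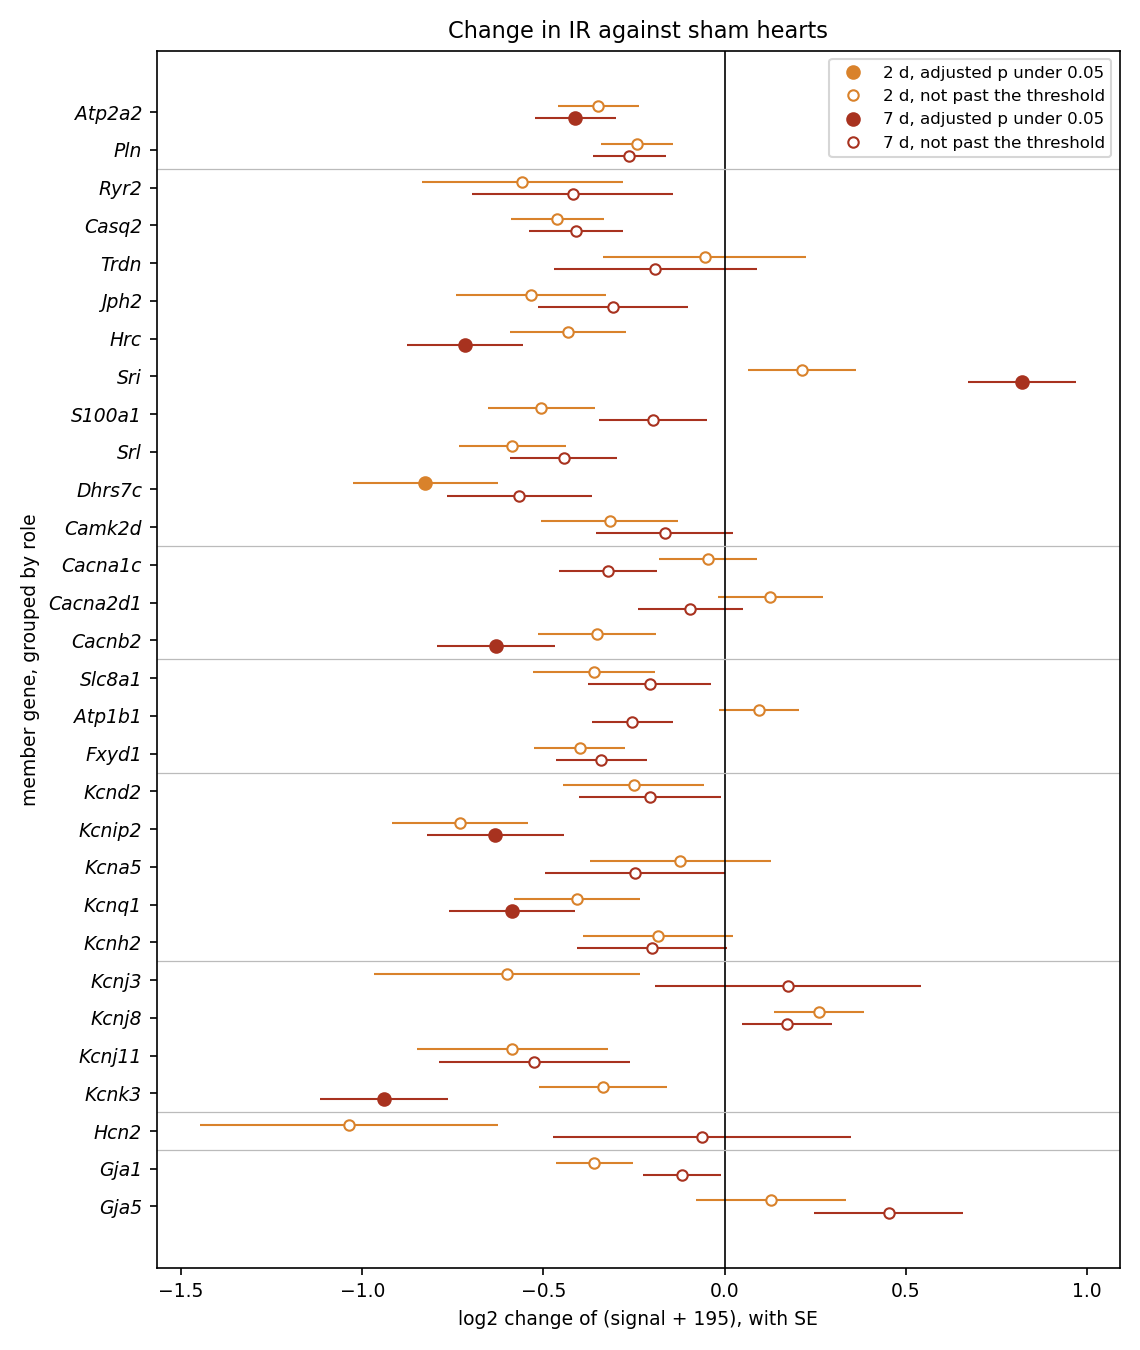
Log2 change of each tested gene in IR against sham hearts at 2 d (orange) and 7 d (red), on the log2(signal + 195) scale, with bars of 1 SE; filled points have an adjusted p under 0.05 and grey lines separate the roles. Dhrs7c is the filled point at 2 d; at 7 d Sri lies at 0.82 and the 6 genes called lower lie between -0.94 and -0.41.

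The average of the IR effects over both days, which rests on all 12 arrays, called more of the genes. There 14 of the 30 fell: Atp2a2, Pln, Casq2, Hrc, S100a1, Srl, Dhrs7c, Cacnb2, Fxyd1, Kcnip2, Kcnq1, Kcnj11, Kcnk3 and Gja1. Sri rose. Over all probe sets 10.5% were called lower and 12.4% higher, and 60.4% of the calls were lower instead of 45.9% after median centring. The count of 14 was 7 when both arrays that stood apart (2 d IR replicate 69, 7 d sham replicate 82) were removed, with Pln, S100a1, Cacnb2, Fxyd1, Kcnq1, Kcnj11 and Gja1 no longer called (adjusted p = 0.0520 for Fxyd1 to 0.218 for Kcnj11), and 10 to 15 when single arrays were left out.

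These counts moved with single arrays on each day. At 2 d, 0 to 7 of the genes fell when 1 array was left out: 7 of them with 2 d IR replicate 73 removed, 4 with 7 d sham replicate 82 removed, 2 with 7 d IR replicate 44 removed, and 0 on removal of 2 d IR replicate 69, any 2 d sham replicate (71, 72 or 74), 7 d sham replicate 81 or 7 d IR replicates 47 or 48. At 7 d the count of 6 became 1 on removal of 7 d IR replicate 47 or 7 d sham replicate 82, 2 when 7 d IR replicate 44 was removed and 3 when 7 d sham replicate 81 was. It was 10 when all 6 sham rats served as the control, which then mixed sham rats of both days. The share of all probe sets called lower with that control is not given here. The calls over all probe sets moved as well: the 260 at 2 d became 2 on removal of 2 d IR replicate 69 or of 2 d sham replicates 71 or 72, 100 on removal of 2 d sham replicate 74, 147 on removal of 2 d IR replicate 76, 501 on removal of 7 d sham replicate 82 and 515 on removal of 2 d IR replicate 73. The 1270 at 7 d became 175 on removal of 7 d sham replicate 82, 474 on removal of 7 d IR replicate 44 and 502 on removal of 7 d IR replicate 47. Because the arrays share an estimate of the spread, an array of another day also moves a count.

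Marker transcripts of several cell types also differed between the groups. Of 18 cardiomyocyte markers, contractile and energy genes with none of the 34 among them, 18 of 18 had negative changes on both days, 1 fell at 2 d and 12 fell at 7 d, and their array mean was lower by a log2 change of -0.35 at 2 d and -0.46 at 7 d. The mean of the 30 genes per array was 12.15 to 12.23 in sham and 11.71 to 12.02 in IR hearts at 2 d, and 11.99 to 12.23 in sham and 11.77 to 11.90 in IR hearts at 7 d, so that IR and sham arrays of a day did not overlap. Macrophage markers rose, 9 of 14 tested at 2 d and 10 of 14 at 7 d, and their summed signal was 47030 to 67606 in sham and 105172 to 161618 in IR hearts at 2 d, and 45715 to 78869 in sham and 114318 to 130260 in IR hearts at 7 d. Of the fibroblast markers, 1 of 14 rose at 2 d and 9 of 14 at 7 d. At 2 d Dpt and Dcn had negative changes and the others positive ones. Their summed signals were 91391 to 105159, 114722 to 132106, 109343 to 195849 and 265262 to 331635 in the same order of groups, for all fibroblast markers tested. Over all probe sets 1.88% were called higher at 2 d and 6.22% at 7 d. The parts of cell numbers and of RNA per cell in the changes below were not tested.

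**Figure D2:**
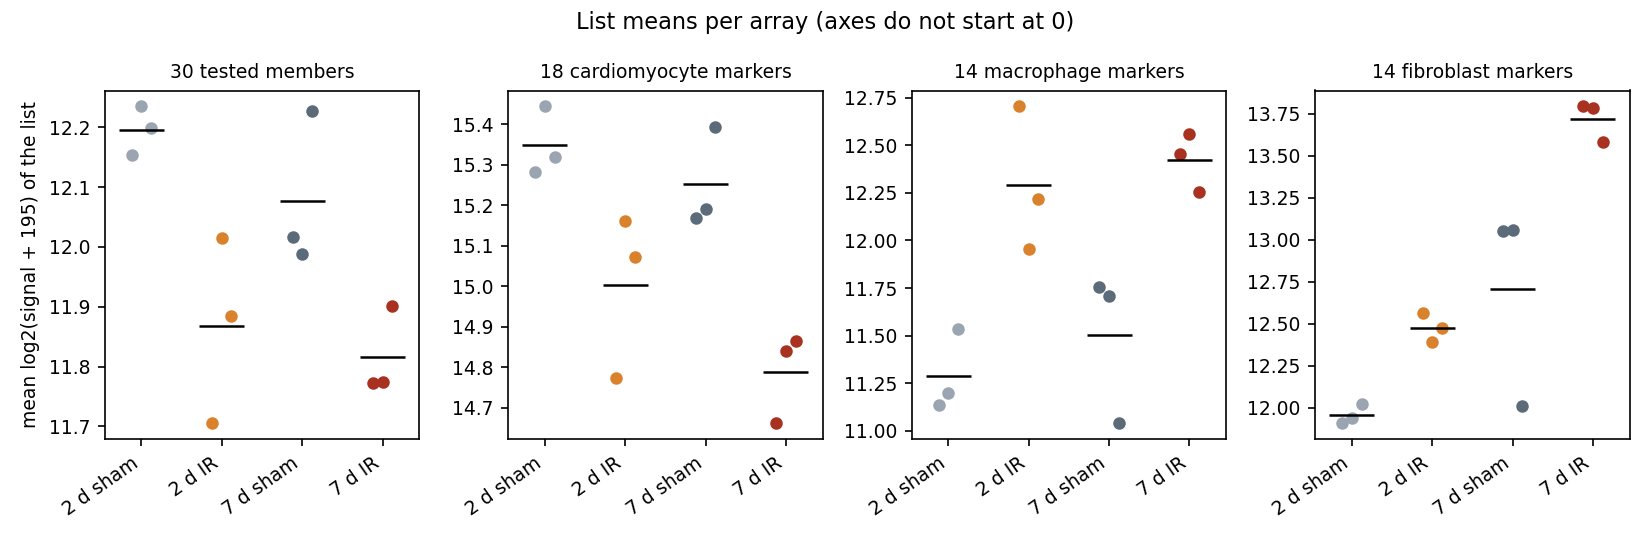
Mean log2(signal + 195) per array of the 30 tested genes, 18 cardiomyocyte markers, 14 macrophage markers and 14 fibroblast markers; points are arrays, lines are group means, and the axes do not start at 0. The 30 genes and the cardiomyocyte markers were lower in every IR array than in every sham array of the same day, and 7 d sham replicate 82 had the lowest fibroblast mean of its group.

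Calcium uptake into the SR rests on Atp2a2, which encodes the SERCA pump, and Pln, which encodes phospholamban, the inhibitor of the pump. Atp2a2 gave signals of 69521, 82304 and 74585 in 2 d sham and 49821, 66646 and 62158 in 2 d IR hearts. At 7 d it gave 66431, 71872 and 78836 in sham and 52314, 57369 and 53031 in IR hearts. Every IR array lay below every sham array of its day. The log2 change was -0.41 at 7 d (SE 0.11, adjusted p = 0.0288) and -0.35 at 2 d (SE 0.11, adjusted p = 0.0954), and over both days Atp2a2 fell (-0.38, SE 0.08, adjusted p = 0.00458). The 7 d call was lost in 9 of 23 other settings. It was lost without 7 d IR replicates 44, 47 or 48 or 7 d sham replicates 81 or 82 (adjusted p up to 0.128). Quantile normalization was another of these settings, with a change of -0.11 (adjusted p = 0.243). Other probe sets of Atp2a2 changed by -0.21 (adjusted p = 0.276) and 0.08 (adjusted p = 0.736) at 7 d. The call over both days was lost with the second probe set (-0.09, adjusted p = 0.487) and after quantile normalization (-0.08, adjusted p = 0.202).

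Pln signals were 46462, 46880 and 49391 in 2 d sham and 36043, 46576 and 38650 in 2 d IR hearts, and 42426, 47453 and 45498 in 7 d sham and 35897, 37415 and 39386 in 7 d IR hearts. The 7 d IR arrays were all below the 7 d sham arrays, while 1 of the 2 d IR arrays lay within the 2 d sham range. Pln did not pass on either day (-0.24 and -0.26, adjusted p = 0.177 and 0.0998) and fell over both days (-0.25, SE 0.07, adjusted p = 0.0196). That call was lost in 5 of 22 other settings. Among them were the fits without 7 d IR replicate 44 (adjusted p = 0.0503) and after quantile normalization (-0.05, adjusted p = 0.515). A second probe set of Pln changed by -0.32 at 7 d (adjusted p = 0.0475).

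Among 10 tested genes of SR calcium release and storage 9 had negative changes on each day. Casq2, calsequestrin, the main calcium buffer inside the store, gave 32604, 34475 and 29768 in 2 d sham and 19991, 26011 and 24425 in 2 d IR hearts, and 25845, 27495 and 33716 in 7 d sham and 19279, 21935 and 23987 in 7 d IR hearts. IR and sham arrays did not overlap on either day. Its changes of -0.46 at 2 d and -0.41 at 7 d did not pass (adjusted p = 0.0664 and 0.0512), and over both days it fell (-0.44, SE 0.09, adjusted p = 0.00469), a call kept in all 22 other settings.

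Hrc, the histidine-rich calcium-binding protein of the SR lumen, gave 19558, 23231 and 23042 in sham and 12793, 18289 and 18009 in IR hearts at 2 d, and 15857, 22049 and 23892 in sham and 12065, 11652 and 13165 in IR hearts at 7 d. The 7 d IR arrays lay close together and below all sham arrays. Hrc fell at 7 d (-0.72, SE 0.16, adjusted p = 0.0136) and over both days (-0.57, SE 0.11, adjusted p = 0.00362), and at 2 d its change was -0.43 (adjusted p = 0.138). The 7 d call was lost without 7 d IR replicate 47 (adjusted p = 0.0513) or 7 d sham replicate 82 (adjusted p = 0.0724).

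Dhrs7c, a reductase of the SR membrane, gave 3935, 6222 and 4867 in 2 d sham and 2509, 2449 and 3169 in 2 d IR hearts. At 7 d sham hearts gave 3607, 4361 and 6236 and IR hearts 2572, 3584 and 3088. The groups did not overlap on either day, by a narrow margin at 7 d. Dhrs7c fell at 2 d (-0.83, SE 0.20, adjusted p = 0.0436) and over both days (-0.70, SE 0.14, adjusted p = 0.00418), and was at -0.57 at 7 d (adjusted p = 0.0792). The 2 d call was lost in 12 of 22 other settings, with adjusted p = 0.210 when 2 d IR replicate 69 was removed and 0.167 when 2 d sham replicate 72 was; the call over both days was kept in all 21.

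Srl, sarcalumenin, a calcium-binding glycoprotein of the SR lumen, gave 7676, 7732 and 7290 in 2 d sham and 3877, 5682 and 5565 in 2 d IR hearts, and 6368, 5817 and 7530 in 7 d sham and 4341, 4628 and 5337 in 7 d IR hearts. All IR arrays were below the sham arrays of their day. It was just outside the threshold at 2 d (-0.59, SE 0.15, adjusted p = 0.0503), did not pass at 7 d (-0.44, adjusted p = 0.0643), and fell over both days (-0.52, SE 0.10, adjusted p = 0.00414).

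S100a1 encodes a calcium sensor that acts on the SERCA pump and the ryanodine receptor. Its signals were 2139, 2748 and 1940 in sham and 1364, 1672 and 1566 in IR hearts at 2 d, and 1727, 1544 and 2144 in sham and 1416, 1584 and 1614 in IR hearts at 7 d. The groups were apart at 2 d and overlapped at 7 d. The changes were -0.51 at 2 d (adjusted p = 0.0764) and -0.20 at 7 d (adjusted p = 0.419). S100a1 fell over both days (-0.35, SE 0.11, adjusted p = 0.0266), a call lost in 5 of 21 other settings. The call was lost without 7 d IR replicate 44 or 2 d IR replicate 69. The same held without 7 d sham replicate 82 or 2 d sham replicate 72. Without 1 of these arrays the adjusted p was up to 0.0716.

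Sri went the other way. It encodes sorcin, a calcium-binding protein that inhibits the ryanodine receptor and is made in many cell types besides muscle. Its signals were 1213, 1065 and 1488 in 2 d sham and 1824, 1367 and 1281 in 2 d IR hearts, and 1339, 1222 and 1256 in 7 d sham and 2182, 2692 and 2336 in 7 d IR hearts. The 7 d IR arrays lay above all 9 others, and the 2 d IR arrays overlapped with their sham arrays. Sri rose 1.77-fold at 7 d (0.82, SE 0.15, adjusted p = 0.00774) and rose over both days (0.52, SE 0.10, adjusted p = 0.00418), with a change of 0.21 at 2 d (adjusted p = 0.437). The calls at 7 d and over both days were kept in every other setting. Sri was also higher in 7 d than in 2 d IR hearts (0.63, SE 0.15, adjusted p = 0.0287). That call was lost in 6 of 21 other settings. Among them were fits without 7 d IR replicates 47 or 48 or 2 d IR replicates 73 or 76 (adjusted p up to 0.127). The difference of the IR effects of Sri between the days was 0.61 and did not pass (adjusted p = 0.543).

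The other genes of this role did not pass in a comparison of IR with sham. Jph2, junctophilin, which ties the SR to the cell membrane, was at -0.53 at 2 d and -0.31 at 7 d, and just outside the threshold over both days (-0.42, adjusted p = 0.0504). Ryr2, the ryanodine receptor itself, was at -0.56 and -0.42 (over both days -0.49, adjusted p = 0.0885), with signals from 1104 to 4026. Camk2d, the kinase that phosphorylates phospholamban and the ryanodine receptor, was at -0.32 and -0.17, and Trdn, triadin, which anchors calsequestrin to the receptor, at -0.05 and -0.19. Fkbp1b, which encodes the binding partner that stabilises the ryanodine receptor, had signals of 5.6 to 34.8, too dim to test.

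**Figure D3:**
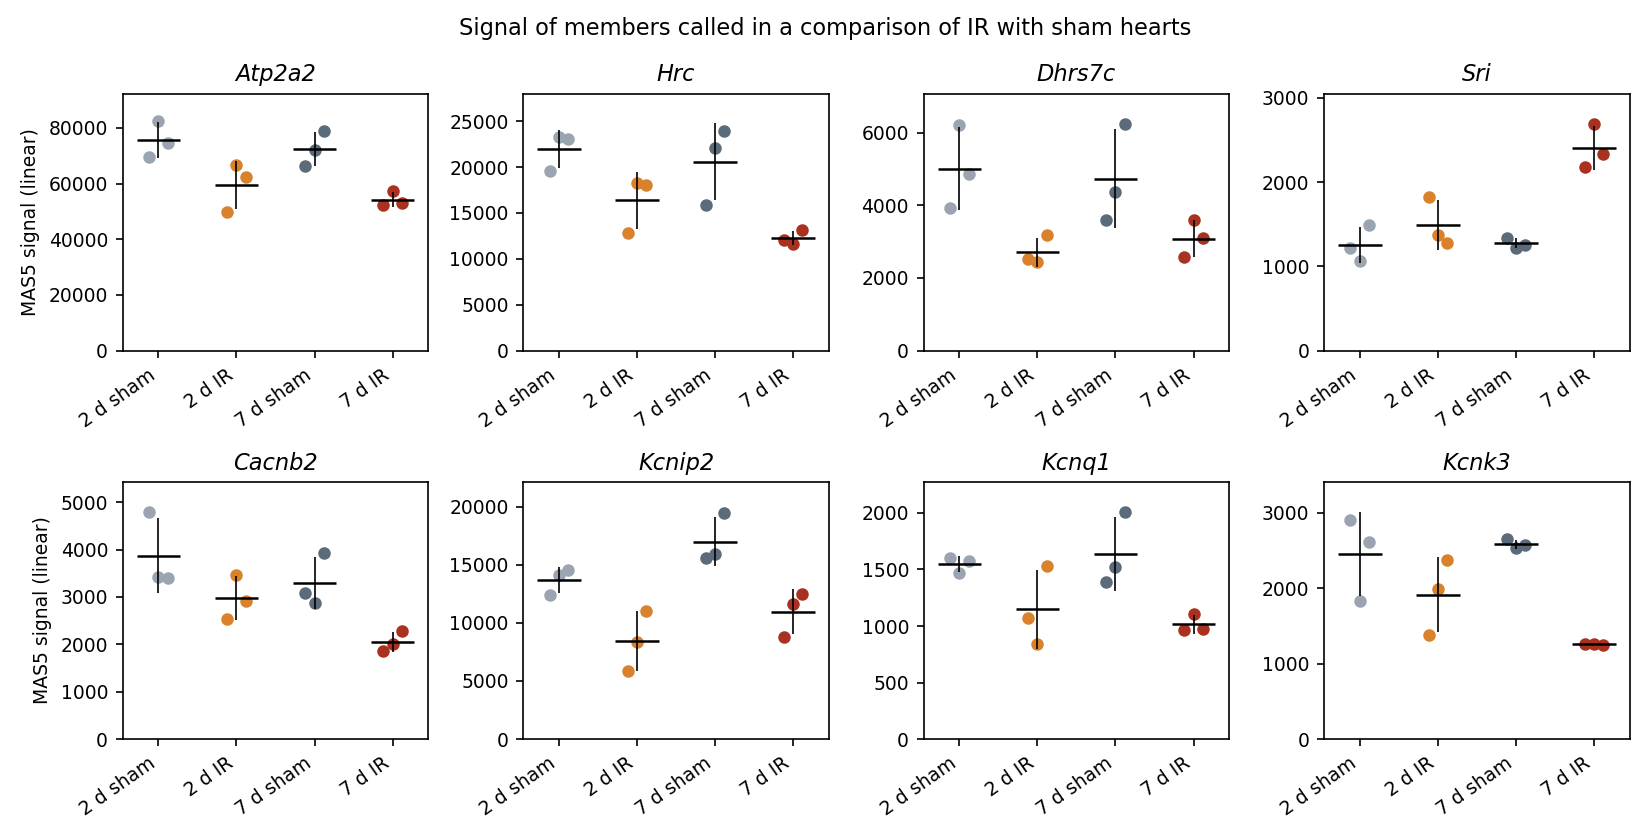
MAS5 signal (linear, axes from 0) of the 8 genes called in a comparison of IR with sham hearts on a single day; points are the 3 arrays of each group, horizontal lines the means and vertical lines the SD. Sri is the gene with its 7 d IR arrays above all others, at 2182 to 2692, and Kcnk3 has its 7 d IR arrays lowest, at 1247 to 1261.

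Calcium entry through the L-type channel was read by its pore, Cacna1c, and its auxiliary subunits Cacna2d1 and Cacnb2, which carry the pore to the membrane and tune its gating. Cacnb2 gave 4787, 3421 and 3403 in 2 d sham and 2546, 3473 and 2910 in 2 d IR hearts, and 3080, 2880 and 3928 in 7 d sham and 1854, 2009 and 2283 in 7 d IR hearts. At 7 d all IR arrays were below all sham arrays. Cacnb2 fell at 7 d (-0.63, SE 0.16, adjusted p = 0.0243), was at -0.35 at 2 d (adjusted p = 0.229), and fell over both days (-0.49, SE 0.12, adjusted p = 0.00830). A second probe set of Cacnb2 fell at 7 d as well (-0.56, adjusted p = 0.0325), and another changed by 0.10 (adjusted p = 0.826). The 7 d call was lost in 4 of 23 other settings. Among them were fits without 7 d IR replicates 44 or 47 or 7 d sham replicate 82 (adjusted p up to 0.119). The pore gene did not pass, with Cacna1c at -0.05 at 2 d and -0.32 at 7 d (adjusted p = 0.888 and 0.135), nor did Cacna2d1, at 0.13 and -0.10.

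The sodium-calcium exchanger Slc8a1 was at -0.36 at 2 d and -0.21 at 7 d (adjusted p = 0.235 and 0.464), and Atp1b1, a subunit of the sodium pump, at 0.09 and -0.26 (adjusted p = 0.683 and 0.151). Fxyd1, phospholemman, which regulates the sodium pump and the exchanger, gave 22807, 24071 and 22172 in 2 d sham and 15055, 20004 and 17458 in 2 d IR hearts, and 17766, 19628 and 22209 in 7 d sham and 13512, 16570 and 16897 in 7 d IR hearts. IR and sham arrays did not overlap on either day. Fxyd1 fell over both days (-0.37, SE 0.09, adjusted p = 0.00941), with changes of -0.40 at 2 d and -0.34 at 7 d that did not pass (adjusted p = 0.0922 and 0.0918).

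Voltage-gated potassium channels repolarise the cell, and all 5 tested genes had negative changes on both days. Kcnip2, the auxiliary subunit of the transient outward current, gave 12414, 14084 and 14561 in 2 d sham and 5863, 8392 and 10987 in 2 d IR hearts. At 7 d sham hearts gave 15615, 15915 and 19425 and IR hearts 8773, 11638 and 12440. Sham and IR arrays of a day did not overlap, and all 7 d sham arrays were above all 2 d sham arrays. Kcnip2 fell at 7 d (-0.63, SE 0.19, adjusted p = 0.0424) and over both days (-0.68, SE 0.13, adjusted p = 0.00354), and was just outside the threshold at 2 d (-0.73, SE 0.19, adjusted p = 0.0533). The 7 d call was lost in 16 of 23 other settings, with adjusted p = 0.163 on removal of 7 d IR replicate 44 and 0.167 on removal of 7 d sham replicate 82, and also without 7 d IR replicate 47, 2 d IR replicate 73, 7 d sham replicates 80 or 81 or 2 d sham replicates 71, 72 or 74. The call over both days was kept in all 22. A second probe set was at -0.30 at 7 d (adjusted p = 0.316) and fell over both days (-0.40, adjusted p = 0.0385).

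Kcnq1, the pore of the slow delayed rectifier, gave 1600, 1465 and 1574 in sham and 1068, 842 and 1530 in IR hearts at 2 d, and 1386, 1518 and 2007 in sham and 964, 1108 and 971 in IR hearts at 7 d. At 7 d the IR arrays were all lower, and at 2 d 1 IR array lay within the sham range. Kcnq1 fell at 7 d (-0.59, SE 0.17, adjusted p = 0.0412) and over both days (-0.50, SE 0.12, adjusted p = 0.0109), and was at -0.41 at 2 d (adjusted p = 0.193). The 7 d call was lost in 12 of 22 other settings, with adjusted p = 0.184 on removal of 7 d sham replicate 82 and 0.119 on removal of 7 d IR replicate 44, and also without 7 d IR replicates 47 or 48, 7 d sham replicate 81 or any 2 d sham replicate. Kcnd2, a pore of the transient outward current, was at -0.25 and -0.21. Kcna5, the ultrarapid delayed rectifier, was at -0.12 and -0.25, and Kcnh2, the rapid delayed rectifier, at -0.18 and -0.20. None of these passed on either day. Kcnd3, another pore of the transient outward current, had signals of 45.4 to 528 and was not tested.

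Inward rectifier and leak potassium channels hold the resting potential and link it to metabolism. Kcnk3, a background potassium channel, gave 2910, 1833 and 2616 in 2 d sham and 1382, 1986 and 2369 in 2 d IR hearts, and 2649, 2534 and 2569 in 7 d sham and 1255, 1261 and 1247 in 7 d IR hearts. The 7 d groups were each narrow and far apart, while the 2 d groups overlapped. Kcnk3 was 1.92-fold lower at 7 d (-0.94, SE 0.18, adjusted p = 0.00839), fell over both days (-0.64, SE 0.12, adjusted p = 0.00359), and was at -0.34 at 2 d (adjusted p = 0.293). The 7 d call was kept without each array, but other probe sets of Kcnk3 changed by -0.24 (adjusted p = 0.490) and -0.35 (adjusted p = 0.198) at 7 d. Over both days these were at -0.08 (adjusted p = 0.749) and -0.46 (adjusted p = 0.0134), so that the call was lost with the second probe set and kept with the other.

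Kcnj11, the pore of the ATP-sensitive channel of ventricular muscle, gave 4016, 7115 and 4841 in sham and 2828, 3716 and 3680 in IR hearts at 2 d, and 2689, 5286 and 5729 in sham and 3175, 2210 and 3678 in IR hearts at 7 d. The groups were apart at 2 d and overlapped at 7 d. Its changes of -0.59 and -0.53 did not pass (adjusted p = 0.215 and 0.208). Over both days Kcnj11 fell (-0.56, SE 0.19, adjusted p = 0.0433), a call lost in 13 of 22 other settings, among them without 7 d IR replicates 44 or 47, 2 d IR replicates 69, 73 or 76, 7 d sham replicates 81 or 82 or 2 d sham replicates 72 or 74 (adjusted p up to 0.114). Kcnj8, the pore of the ATP-sensitive channel best known in vessels, was at 0.26 and 0.17 (adjusted p = 0.240 and 0.394), with its 2 d IR arrays all above the 2 d sham arrays. Kcnj3, the acetylcholine-activated channel of the atrium, was at -0.60 and 0.17 and ran from 215 to 1120 across arrays. Kcnj2, the classical inward rectifier, had signals of 59.4 to 349 and was not tested.

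Of the pacemaker channels, Hcn2 gave 2658, 6228 and 5354 in sham and 1247, 4747 and 1460 in IR hearts at 2 d, and 2126, 2610 and 4512 in sham and 2168, 3702 and 2725 in IR hearts at 7 d. Every group was widely spread and overlapped with its control. The changes were -1.04 at 2 d (SE 0.41, adjusted p = 0.163) and -0.06 at 7 d (SE 0.41, adjusted p = 0.934). Hcn4, the main channel of the sinus node, had signals of 28.3 to 189 and was not tested.

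Gja1, the main connexin of ventricular muscle, gave 29818, 25231 and 28080 in 2 d sham and 19029, 24198 and 21601 in 2 d IR hearts, and 21805, 23040 and 24596 in 7 d sham and 21576, 22312 and 20050 in 7 d IR hearts. The groups were apart at 2 d and overlapped at 7 d. The changes were -0.36 (adjusted p = 0.0794) and -0.12 (adjusted p = 0.518), and Gja1 fell over both days (-0.24, SE 0.08, adjusted p = 0.0353). That call was lost in 14 of 22 other settings, among them without 7 d IR replicates 44 or 48, 2 d IR replicates 69 or 76, 7 d sham replicates 81 or 82 or 2 d sham replicates 71 or 74 (adjusted p up to 0.0856), and a second probe set was at 0.48 at 7 d (adjusted p = 0.128) and 0.03 over both days. Gja5, a connexin of the atrium, the conduction system and arterial endothelium, was at 0.13 and 0.45 (adjusted p = 0.777 and 0.169).

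Counted by position alone, 11 of the 30 genes had all 2 d IR arrays below all 2 d sham arrays, where 12.5% of all probe sets did, and Kcnj8 had them above (13.9% of all probe sets). At 7 d 13 genes had all IR arrays below all sham arrays, where 15.8% of all probe sets did, and Sri had them above (16.6%). Both counts included Atp2a2, Casq2, Hrc, Srl, Dhrs7c, Fxyd1 and Kcnip2. Among the genes that did not pass at 7 d, Pln, Cacna1c and Cacna2d1 also had their IR arrays below.

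**Figure D4:**
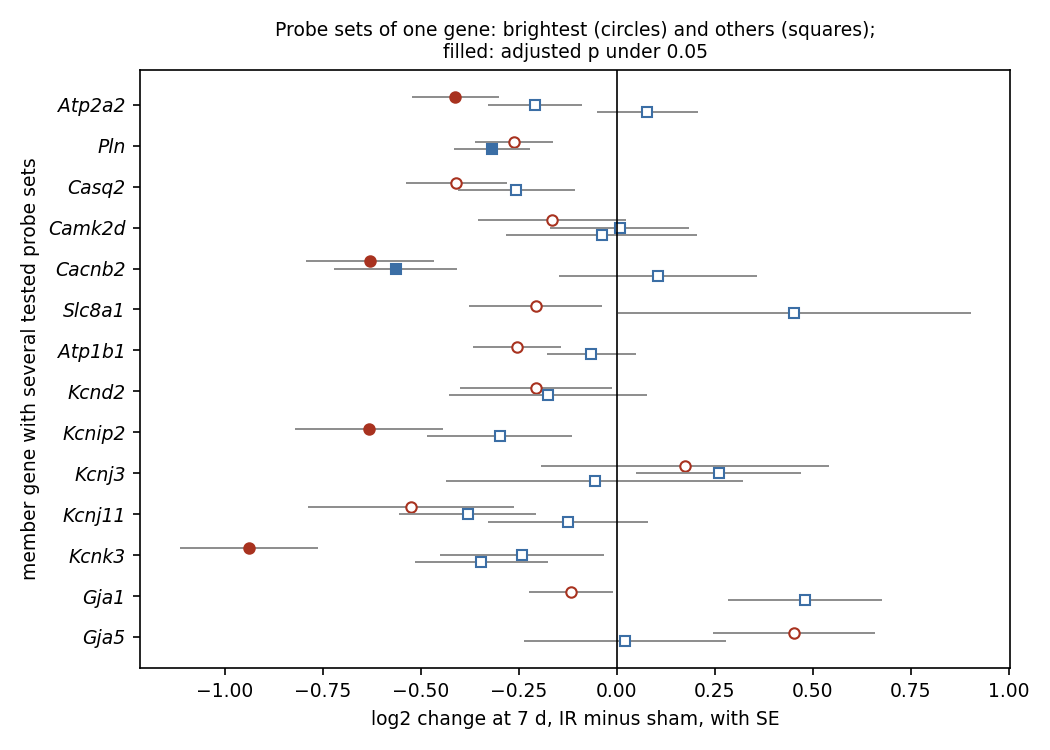
Log2 change at 7 d, with bars of 1 SE, of each tested probe set of the 14 genes that have several; circles are the brightest probe set, squares the others, and filled symbols have an adjusted p under 0.05. Of 20 other probe sets 14 had the sign of the brightest and 6 the opposite sign; Atp2a2 and Cacnb2 are called genes with another probe set on the positive side, at 0.08 and 0.10.

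The days were compared within sham and within IR hearts. Between 7 d and 2 d sham hearts 0 of the 30 genes passed with limma, where 0.019% of all probe sets were called lower, 0.057% higher and 0.076% in either direction, and 2 genes had an unadjusted p under 0.05, as did 9.42% of all probe sets. Kcnip2 and Kcnj8 had all 7 d sham arrays above the 2 d sham arrays and Gja1 and Ryr2 had them below, where 7.27% and 7.07% of all probe sets did. Between 7 d and 2 d IR hearts Sri alone of the 30 passed, where 2.45% of all probe sets were called higher, 0.997% lower and 3.45% in either direction. Sri had all 7 d IR arrays above the 2 d IR arrays (10.6% of all probe sets), and Atp1b1, Cacna1c, Cacna2d1, Cacnb2 and Kcnk3 had them below (9.91%). The difference of the IR effects between the days was called for 0 of the 30 and for 0.0095% of all probe sets, and 3 of the 30 and 7.14% of all probe sets had an unadjusted p under 0.05. For Kcnk3 that difference was -0.60 (adjusted p = 0.622), so that its larger change at 7 d was not shown to differ from that at 2 d.

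To set the genes beside other transcripts of muscle cells, the mean of the 18 cardiomyocyte markers of each array was subtracted from every probe set and the fit repeated. Atp2a2 was then at -0.0021 at 2 d and 0.05 at 7 d (SE 0.06 each), Casq2 at -0.12 and 0.05, and Hrc at -0.09 and -0.25; none of these passed. Of the 30 genes 0 were called lower relative to the markers on either day, where 0.057% of all probe sets were at 2 d and 0.247% at 7 d. Kcnk3 at 7 d (-0.48, adjusted p = 0.0583), Dhrs7c at 2 d (-0.48, adjusted p = 0.0758) and Kcnip2 at 2 d (-0.38, adjusted p = 0.0725) came nearest. Called higher relative to the markers were Atp1b1 (0.44, adjusted p = 0.0380) and Kcnj8 (0.61, adjusted p = 0.0279) at 2 d, where 15.7% of all probe sets were. At 7 d these were Sri (1.28, adjusted p = 0.00159), Kcnj8 (0.64, adjusted p = 0.00812), Gja1 (0.34, adjusted p = 0.0242) and Gja5 (0.91, adjusted p = 0.0146), where 43.4% of all probe sets were. The 2 d count was 0 without 2 d IR replicate 69 or any 2 d sham replicate (71, 72 or 74), and 4 without 2 d IR replicate 73; the 7 d count was 2 without 7 d IR replicate 44 or 7 d sham replicate 82.

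The same fit over both days, added after the values had been seen, called Kcnip2 lower relative to the markers (-0.28, SE 0.10, adjusted p = 0.0286), where 0.351% of all probe sets were. It called Sri (0.92), Gja5 (0.69), Kcnj8 (0.62), Cacna2d1 (0.42), Atp1b1 (0.32) and Pln (0.15, adjusted p = 0.0466) higher, where 60.8% of all probe sets were. Kcnk3, at -0.23, did not pass (adjusted p = 0.148).

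**Figure D5:**
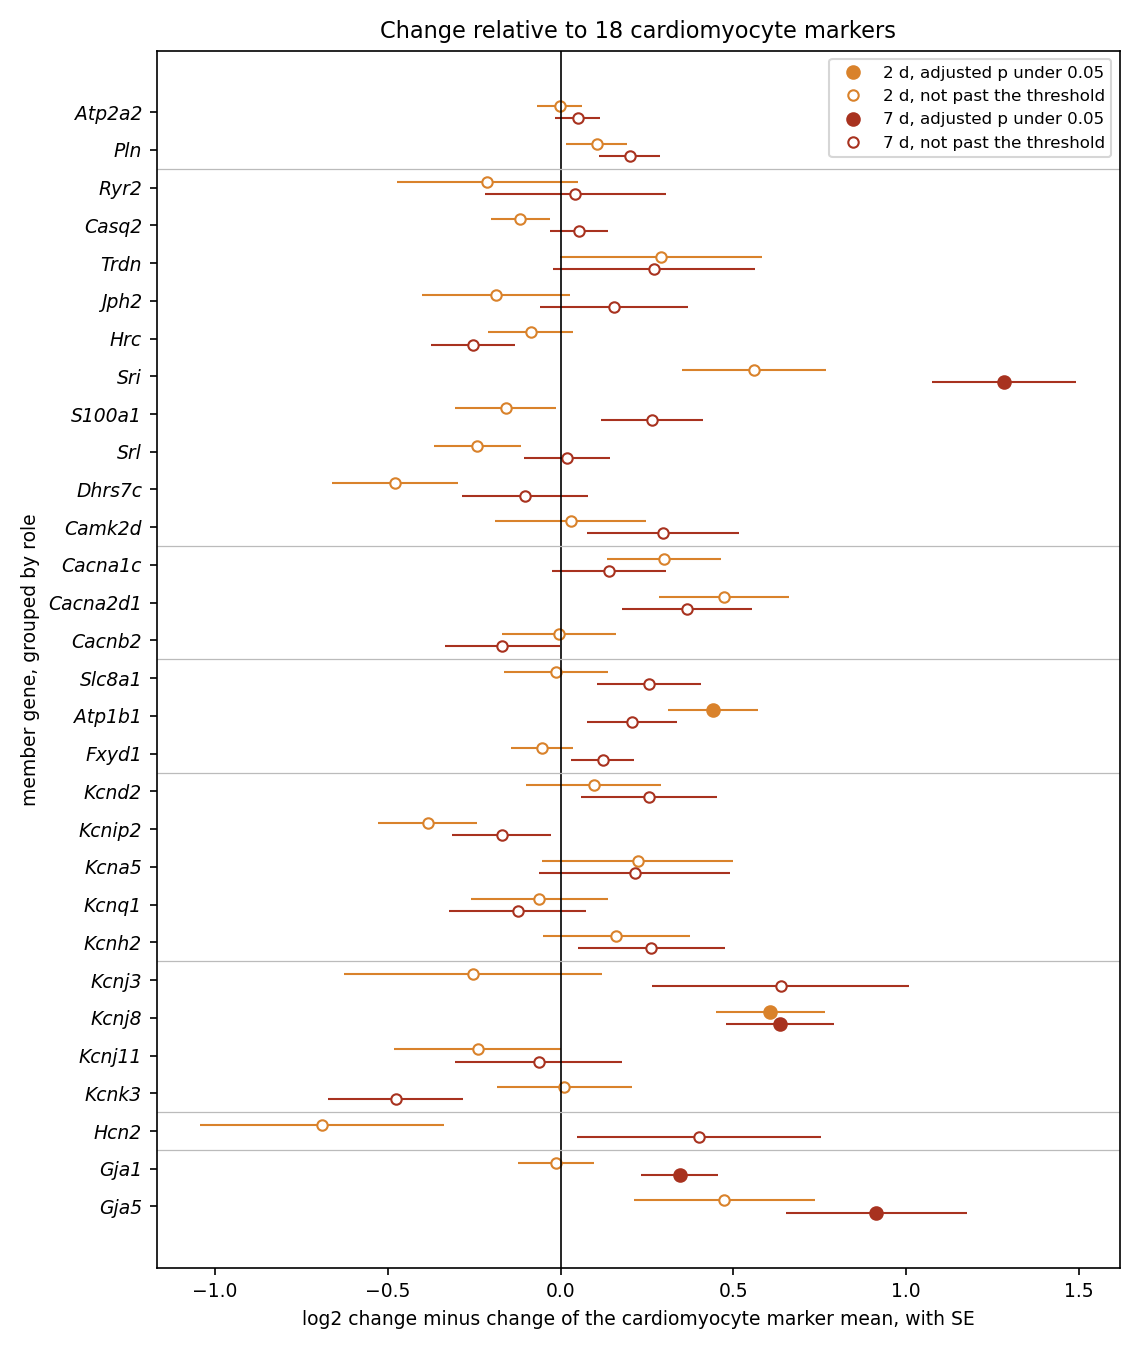
Log2 change of each tested gene in IR against sham hearts at 2 d (orange) and 7 d (red) after the mean of the 18 cardiomyocyte markers of each array was subtracted, with bars of 1 SE and filled points for an adjusted p under 0.05. Atp2a2 lies at -0.0021 and 0.05, and the filled points are all on the positive side.

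A wider list of calcium and ion transport genes gave 89 tested genes of 179. At 2 d 2 of them rose and 1 fell, where 1.88% of all probe sets were called higher and 0.589% lower, so that these counts lay near the background: Fxyd5 (1.04, SE 0.24, adjusted p = 0.0414) and Atp1b3 (0.64, SE 0.16, adjusted p = 0.0484), both of the sodium pump family, rose, and Camk2g, a calcium-dependent kinase, fell (-0.48, SE 0.12, adjusted p = 0.0482). At 7 d 3 rose and 10 fell, against the 6.22% and 5.84% above. Fxyd2, a regulator of the sodium pump, rose (1.28, SE 0.25, adjusted p = 0.00946). Sodium channels were all negative at 7 d, 6 of 6 tested, and 2 fell: Scn7a, a sodium-sensing channel (-0.81, SE 0.18, adjusted p = 0.0131), and Scn4b, an auxiliary subunit (-0.69, SE 0.19, adjusted p = 0.0310). Asph, whose locus also encodes the SR protein junctin, fell (-0.71, SE 0.22, adjusted p = 0.0464), as did Slc4a3, a chloride-bicarbonate exchanger (-0.68, SE 0.13, adjusted p = 0.00946), and Dsp, desmoplakin, which links muscle cells at the intercalated disc (-0.68, SE 0.12, adjusted p = 0.00669). The median change of the list was -0.07 at 2 d and -0.11 at 7 d, nearer to 0 than that of the 30 genes.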

How the data were processed

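Per the submitters' processing notes the authors computed signals with MAS5, whose version is not given in the sources used here; the deposited intensity values are linear, and the mean of each array without 2% of probe sets at each end was 1500.4 to 1500.5. The number of arrays limits the precision. MAS5 scales each array to a common level and combines match and mismatch probes, so that dim probe sets are noisy.

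Signals were taken as log2(signal + 195), the pseudocount being the median over arrays of the 20th percentile; for low signals this shrinks a fold change. Controls (57 of the 15923 probe sets) were not tested. The 10527 others that exceeded the 40th percentile of the array on 3 or more arrays were fitted with limma 3.58.1 in R 4.3.3 (group means over 12 arrays, eBayes with an intensity trend; two-sided; 6 comparisons), and p-values were adjusted within a comparison. The fit was tested on simulated data, whose results are not given here, so that no error rate is drawn from them. Genes, lists and tests were chosen with earlier results of these data known. All 34 genes are named; those called, and the brightest of each role, are given in full, with up to 6 called genes of the wider list per comparison of IR with sham. Groups came from titles and descriptions; no batch is given. Symbols come from GEO's platform annotation, where 12789 probe sets have 1 symbol, 312 several and 2822 are unnamed here; Trdn and Kcnj11 are read by probe sets whose names mark probes that can match other transcripts. Alternatives were the pseudocount, the filter, the normalization, the trend, array weights, the control, the probe set and the arrays used.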

Additional observations from a re-analysis of the deposited data

Results flagged for a closer look

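For Cacna2d1, an auxiliary subunit of the L-type calcium channel, all 2 d IR arrays lay above the 2 d sham mean and all 7 d IR arrays below the 7 d sham mean, and the difference of the IR effects, 7 d minus 2 d, was -0.22 (limma adjusted p = 0.880, not passed). Atp1b1, a subunit of the sodium pump, showed the same arrangement, with a difference of -0.35 (adjusted p = 0.669, not passed). For both genes the IR and sham arrays overlapped at 2 d. The share of all probe sets with this arrangement is not given here, so that it is not shown to be particular to these genes. No explanation was tested for either gene.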

How the results depend on the processing

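No paired analysis was possible because the groups share no replicate numbers. Of the changes of the named genes under other settings, 881 kept their direction and their side of the threshold, 104 lost and 30 gained a call, and 5 reversed. The reversals were Atp2a2 at 2 d (0.0276), Kcnk3 at 2 d (0.083), Gja1 at 7 d (0.48) and Gja1 over both days (0.0288) with the second probe set, and Gja1 at 7 d after quantile normalization (0.0445). The 1 gene that fell at 2 d became 0 without the filter, without the trend and without both arrays that stood apart, 2 with a pseudocount of 500, with array weights and with all 6 sham rats, and 3 after median centring; leaving out single arrays gave 0 to 7. The 6 that fell at 7 d became 3 without the filter, without the trend and without both arrays. They became 8 after median centring and 10 with all 6 sham rats, and 1 to 8 with single arrays left out. A control of all 6 sham rats mixes both days, and the share of all probe sets called with it is not given here. The 14 over both days became 7 without both arrays (10 to 15). For the difference between the days, 0 became 1 higher with all 6 sham rats. Between 7 d and 2 d IR hearts, 0 lower became 1 with array weights and 2 without both arrays (0 to 1), and 1 higher became 0 without the filter and with the compared groups alone (0 to 1). Relative to cardiomyocyte markers, the 2 calls at 2 d became 1 without the trend, with the compared groups alone and with the second probe set, and 0 without both arrays (0 to 4); the 4 at 7 d became 8 with all 6 sham rats (2 to 6); and the 7 over both days became 4 without both arrays (5 to 9). Over all probe sets, the 260 called at 2 d became 77 without the filter, 68 without the trend and 70 without both arrays, and 2 to 515 with single arrays left out (175 to 1463 in place of 1270 at 7 d). The causes of these changes were not tested. Of the 34 genes 4 were too dim to test, and 3 arrays a group cannot give an exact permutation p below 0.1.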
